A study of Homo sapiens with 4 samples.

Results

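The Eph receptors are the largest family of receptor tyrosine kinases, and 10 of their genes, EPHA1, EPHA2, EPHA3, EPHA4, EPHA7, EPHA10, EPHB2, EPHB3, EPHB4 and EPHB6, were followed in LNCaP prostate cancer cells with and without overexpression of RRM2. The genes were chosen by their symbols after a comparison of the same 4 libraries had placed EPHA3 among the lowest ratios, so the values that chose them are those of this comparison and their differences are given as a description, with no p-value, and counts of calls among them are printed only beside the share of all genes called. The table held 9 of the 10 among its 17141 genes, and all 9 passed the filter on low counts, EPHB6 only through its libraries with RRM2 overexpression. EPHA4 was not analysed here.

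LNCaP is an androgen-sensitive line derived from a lymph node metastasis of prostate cancer, and RRM2 is the smaller subunit of ribonucleotide reductase, which supplies deoxyribonucleotides for DNA synthesis. LNCaP-EV cells carried an empty vector (2 libraries), and LNCaP-RRM2 cells were a stable line made with a lentivirus encoding RRM2 and kept under puromycin (2 libraries). The labels give 1 culture condition for both groups, and no source states that libraries of 1 group were grown separately, so p-values reflect only the spread of these samples, which may be technical. Levels are given in CPM, a gene's counts per 1000000 counts of its library, with library sizes scaled by the trimmed mean of M values (TMM). RRM2 itself was measured at 318.3 and 342.6 CPM with the empty vector and at 9291 and 8979 CPM in LNCaP-RRM2, a 27.6-fold difference with no overlap. Total estimated counts per library were between 26601061 and 32601519. All 10 LNCaP luminal markers on the list were present, at a summed 7842 and 7549 CPM with the empty vector and 10869 and 11220 CPM in LNCaP-RRM2. Fibroblast markers, of which 4 of 6 were in the table, summed to 12.2 and 8.16 CPM against 34.8 and 26.2 CPM, basal markers (3 of 5) to 1.52 and 0.749 against 3.57 and 3.01 CPM, endothelial markers (3 of 5) to 9.17 and 6.81 against 10.3 and 11.6 CPM, and 1 blood cell marker of 6 was listed, at 0.127 to 0.479 CPM. The part of these markers in the receptor differences was not tested.

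Eph receptors bind ephrins, which are themselves anchored in the membrane of a neighbouring cell, so signalling needs cell contact and can run into both cells. EPHA receptors mainly bind the lipid-anchored EFNA ligands and EPHB receptors the transmembrane EFNB ligands. In epithelia the family is known for cell repulsion, adhesion, boundary formation and migration, and in carcinomas its members can act for or against growth depending on the receptor and on whether ligand is bound.

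EPHA3, a receptor for EFNA5 known in mice for guiding axons and for a role in heart valve development, had the lowest log2 fold change of the 9 chosen receptors in LNCaP-RRM2. Its position in the table was chr3:89107524-89482134 on the plus strand, in coordinates that overlapped GRCh38. It was measured at 43.7 and 48.7 CPM in LNCaP-EV (1380 and 1301 counts), and at 8.44 and 8.99 CPM in LNCaP-RRM2 (229 and 245 counts). Both LNCaP-RRM2 libraries were low and the groups did not overlap. The mean was 46.2 ± 3.56 CPM (SD, n = 2) against 8.71 ± 0.387 CPM (SD, n = 2), a log2 fold change of -2.40 (SE 0.11), or 5.30-fold lower. In such bulk samples, fewer cells with EPHA3 and less EPHA3 RNA per cell cannot be told apart. Of the 11283 genes that averaged 5 CPM or more, 2 had a lower log2 fold change. EPHA3 was chosen for its low ratio in these libraries, so this rank restates the choice. The EPHA3 log2 fold change was between -2.50 and -2.24 under 15 other settings of the processing.

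The 250 bases before the annotated start of 3 receptor genes are shown because these genes stood at the ends of the family. EPHA3 had the lowest log2 fold change, EPHA1 the highest among receptors above 5 CPM, and EPHA6, a receptor outside the chosen set, was lower too. They come from RefSeq on GRCh38.p14 and are written 5′ to 3′ on the strand of the gene, at chr3:89107371-89107620 (plus), chr7:143408857-143409106 (minus) and chr3:96814344-96814593 (plus). Capitals mark a GC box, searched as GGGCGG on both strands with overlapping matches counted.
EPHA3: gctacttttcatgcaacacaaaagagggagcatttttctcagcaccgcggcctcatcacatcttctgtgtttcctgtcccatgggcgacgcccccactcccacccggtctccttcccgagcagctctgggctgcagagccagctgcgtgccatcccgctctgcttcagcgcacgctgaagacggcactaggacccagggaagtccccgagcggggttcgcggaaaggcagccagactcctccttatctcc
EPHA1: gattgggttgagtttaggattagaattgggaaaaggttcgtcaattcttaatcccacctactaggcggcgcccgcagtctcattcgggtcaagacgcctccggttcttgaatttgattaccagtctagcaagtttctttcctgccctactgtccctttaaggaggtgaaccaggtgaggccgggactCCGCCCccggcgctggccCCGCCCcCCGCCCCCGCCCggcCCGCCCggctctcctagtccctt
EPHA6: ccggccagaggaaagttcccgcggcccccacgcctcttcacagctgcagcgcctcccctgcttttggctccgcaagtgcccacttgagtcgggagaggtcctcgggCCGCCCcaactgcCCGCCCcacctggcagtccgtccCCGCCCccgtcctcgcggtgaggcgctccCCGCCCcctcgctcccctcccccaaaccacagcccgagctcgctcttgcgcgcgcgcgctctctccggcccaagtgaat
The EPHA3 window held 0 GC boxes and 15 CpG, the EPHA1 window 5 GC boxes and 17 CpG, and the EPHA6 window 4 GC boxes and 26 CpG. Of 35116 RefSeq promoter windows of this length 42.6% held a GC box, and the median window had 11 CpG. RefSeq gave a window for 8 of the 9 receptors in the table, with none for EPHA10. EPHA3 was the only one of these 8 without a GC box, and the others held 1 (EPHA2, EPHB2, EPHB6), 3 (EPHB3), 4 (EPHA7, EPHB4) or 5 (EPHA1). The EPHB6 window lay inside its gene, 7742 bases from the start given in the table, so it is not comparable with the other windows. By the starts given in the table, the windows of EPHA3, EPHA1 and EPHA6 reached 97, 36 and 13 bases into the genes. The EPHB2 window had 42 CpG, more than 98.6% of all windows. The TATA box, searched as TATAAA on both strands, was in 0 of the 8 windows and in 10.7% of all windows. These matches describe the letters in the windows and were not measured as bound sites.

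The other EPHA receptors did not share the EPHA3 value. EPHA7, a receptor that also binds EFNA ligands and is known in mice for patterning the cortex, was measured at 34.9 and 37.0 CPM in LNCaP-EV and at 32.4 and 32.0 CPM in LNCaP-RRM2 (chr6:93240021-93419582, minus strand). The LNCaP-RRM2 libraries were lower by little, with a log2 fold change of -0.16 (SE 0.09). EPHA1, the receptor first found in the family, stood higher: 11.5 and 8.61 CPM in LNCaP-EV against 23.4 and 23.2 CPM in LNCaP-RRM2 (chr7:143391112-143408892, minus strand), a log2 fold change of 1.21 (SE 0.16) or 2.31-fold. EPHA2, the EPHA receptor most studied in carcinoma and a receptor of EFNA1, was at 6.96 and 4.49 CPM against 11.3 and 9.83 CPM (chr1:16124337-16156109, minus strand). Its log2 fold change was 0.88 (SE 0.23), with both LNCaP-RRM2 libraries above both LNCaP-EV libraries. EPHA10, which has a kinase domain thought to be inactive, was at 17.5 and 13.3 CPM against 22.2 and 20.4 CPM (chr1:37715974-37765152, minus strand), a log2 fold change of 0.47 (SE 0.16).

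The 4 EPHB receptors all had higher values in both LNCaP-RRM2 libraries. EPHB4, the receptor of EFNB2 that separates arteries from veins, was the most abundant of them, at 46.6 and 33.7 CPM in LNCaP-EV and 76.4 and 69.3 CPM in LNCaP-RRM2 (chr7:100802565-100827521, minus strand). The log2 fold change was 0.86 (SE 0.16), or 1.81-fold. EPHB3, which with EPHB2 positions cells along the intestinal crypt of mice, was at 15.2 and 10.3 CPM against 22.6 and 20.4 CPM (chr3:184561799-184582408, plus strand), a log2 fold change of 0.75 (SE 0.20). EPHB2 was at 6.55 and 5.05 CPM against 11.8 and 11.4 CPM (chr1:22710838-22921500, plus strand), and its log2 fold change of 1.00 (SE 0.17) was a 2.00-fold difference. EPHB6, whose kinase domain lacks catalytic activity, rested on few reads, with 33 and 8 counts in LNCaP-EV and 46 and 50 counts in LNCaP-RRM2 (chr7:142855014-142871093, plus strand). At 1.04 and 0.299 CPM against 1.70 and 1.83 CPM its log2 fold change was 1.35 (SE 0.50). The LNCaP-EV libraries set the size of that value, which was 2.53 without LNCaP-EV replicate 1 and 0.80 without LNCaP-EV replicate 2. EPHB6 met the low-count filter only through its LNCaP-RRM2 libraries. The filter thus favoured its direction, and nothing is read from EPHB6 in counts or medians of the receptors.

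**Figure D1:**
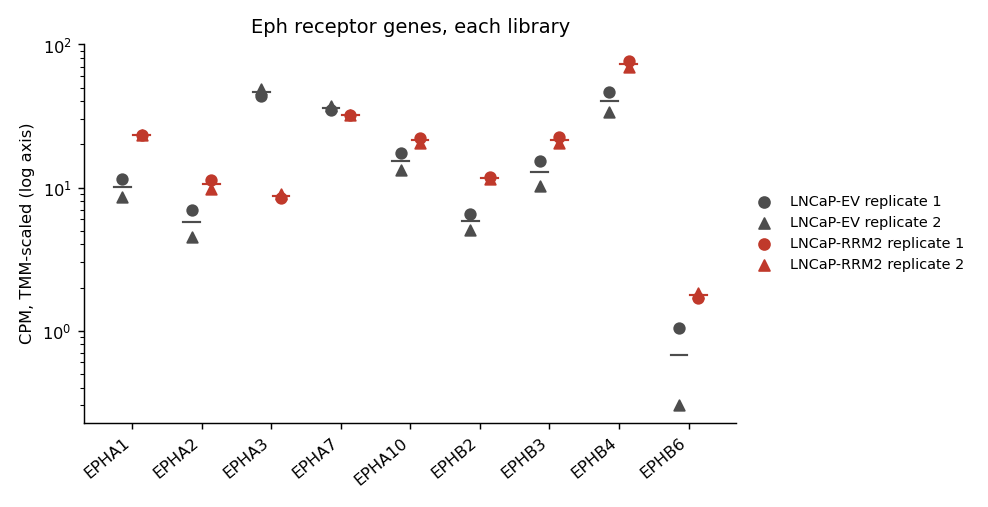
Level of each Eph receptor gene in every library, in TMM-scaled CPM on a log axis. Circles are replicate 1, triangles replicate 2 and short lines the group means. EPHA3 is the receptor whose LNCaP-RRM2 libraries sit far below LNCaP-EV (8.44 and 8.99 against 43.7 and 48.7 CPM), EPHA7 is nearly level, and the other 7 are higher in LNCaP-RRM2.

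By the call used across the table, an adjusted p under 0.05 with a fold above 1.5, 5 receptors were higher (EPHA1, EPHA2, EPHB2, EPHB3, EPHB4) and 1 was lower (EPHA3), where 12.5% of the 15162 genes tested were called higher and 7.96% lower. The groups did not overlap with LNCaP-RRM2 higher for 7 receptors and with LNCaP-RRM2 lower for 2, against 34.5% and 40.9% of all genes. The receptors were picked with this contrast known, so nothing is read from these counts. The receptors called higher numbered 7 when LNCaP-EV replicate 1 was left out (18.4% of all genes) and 4 when its replicate 2 was (12.6%). With LNCaP-RRM2 replicate 1 left out 0 receptors were called higher (2.76% of all genes), and with its replicate 2 left out 1 was (EPHA1, 3.92%). Their median log2 fold change was 0.86, where that of all genes was -0.026.

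Per length of the longest transcript, EPHA3 and EPHB4 headed the family in LNCaP-EV, at 7.95 and 7.94 CPM per kb, and their libraries overlapped. EPHA7 followed at 5.46 CPM per kb. EPHB3 (3.01), EPHA1 (2.99) and EPHA10 (2.84 CPM per kb) overlapped one another, and EPHA2 (1.44), EPHB2 (0.536) and EPHB6 (0.152 CPM per kb) came last. In LNCaP-RRM2 the order was EPHB4 at 14.4, EPHA1 at 6.92, EPHB3 at 5.07, EPHA7 at 4.89, EPHA10 at 3.93, EPHA2 at 2.67, EPHA3 at 1.5, EPHB2 at 1.08 and EPHB6 at 0.400 CPM per kb. EPHB3 and EPHA7 were the neighbours in this order whose libraries overlapped. EPHA3 thus went from the head of the list to below EPHA2. The order was the same with total exon length in place of the longest transcript.

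**Figure D2:**
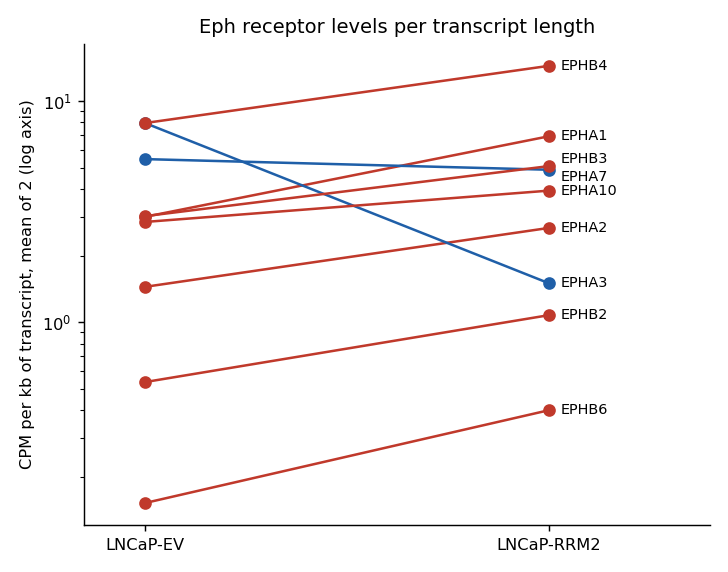
Mean level of each Eph receptor gene per kb of its longest transcript in LNCaP-EV and LNCaP-RRM2 (n = 2 libraries each), on a log axis. Red lines mark a higher and blue lines a lower mean in LNCaP-RRM2. EPHA3 goes from 7.95 to 1.5 CPM per kb and EPHB4 stands first in LNCaP-RRM2 at 14.4 CPM per kb.

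The summed CPM of the 9 receptors was 183.9 and 161.5 with the empty vector and 210.3 and 197.4 in LNCaP-RRM2. EPHA3 made up 23.7% and 30.2% of it with the empty vector and 4.01% and 4.55% in LNCaP-RRM2. Without EPHA3 the sum was 140.3 and 112.8 against 201.8 and 188.4 CPM. The group sums did not overlap with or without it.

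The GC content of a transcript moved with these differences. The 7 receptors with over 50% GC (55.6% to 63.2%) were the 7 that stood higher in LNCaP-RRM2, and in all 7 LNCaP-EV replicate 1 was also above replicate 2, by 0.37 to 1.59 on the log2 scale. EPHA3 and EPHA7 (40.6% and 37.9% GC) were below 0 in both respects. Over all genes in deciles of GC content, the median log2 fold change went from -0.23 in the lowest decile to 0.49 in the highest, and the median log2 ratio of the LNCaP-EV libraries from -0.11 to 0.66. EPHA10 at 0.47 was level with the 0.49 of its decile, EPHA1 at 1.21 stood above the 0.30 of its own, and EPHA3 at -2.40 stood far below -0.22. With each library's GC trend removed, EPHA3 was at -2.24, EPHA7 at 0.015, EPHA1 at 0.90, EPHA2 at 0.54, EPHA10 at -0.014, EPHB2 at 0.87, EPHB3 at 0.32, EPHB4 at 0.49 and EPHB6 at 1.00 on the log2 scale. The median of the 9 was then 0.49, with 2 called higher (EPHA1, EPHB2) and 1 lower (EPHA3), where 12.8% and 7.53% of all genes were called. The part of GC content in the difference of any one receptor was not tested.

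**Figure D3:**
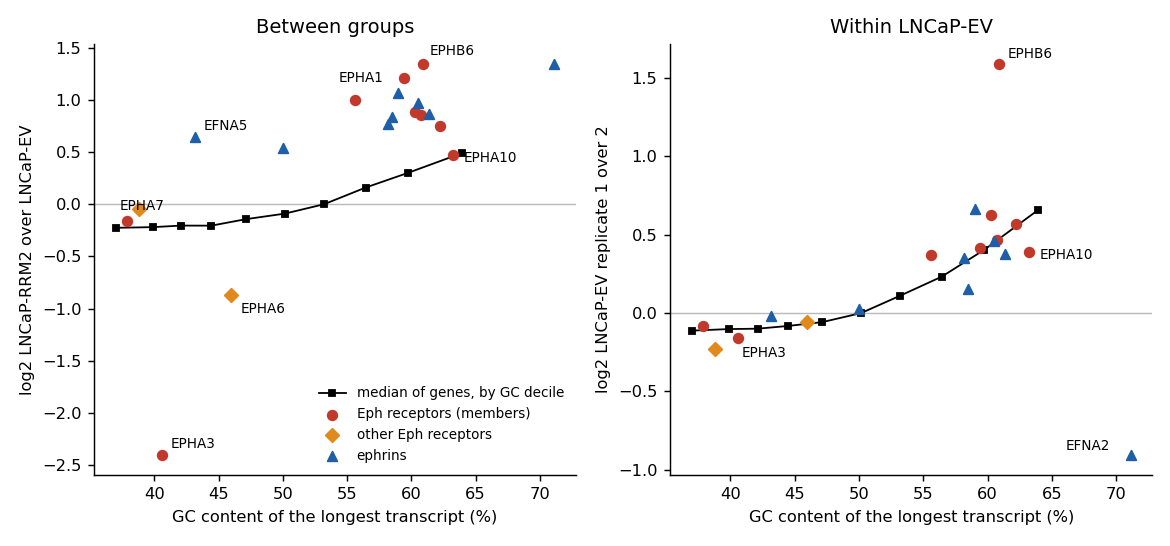
Left, log2 fold change between groups, and right, log2 ratio of the LNCaP-EV libraries, each against the GC content of the gene's longest transcript in percent. The black line joins the medians of all genes by GC decile (-0.23 to 0.49 left, -0.11 to 0.66 right). EPHA3 at -2.40 lies far from the line on the left and near it on the right, and EPHA10 lies near the line on the left.

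**Figure D4:**
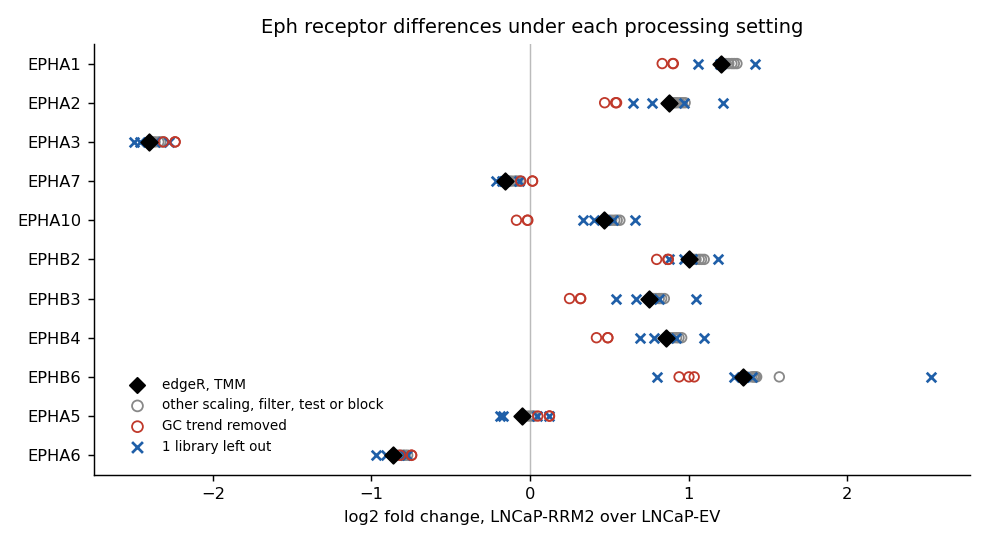
Log2 fold change of each Eph receptor gene under the edgeR fit with TMM scaling (diamonds) and the other processing settings (circles and crosses). EPHA3 stays between -2.50 and -2.24, EPHB6 spreads from 0.80 to 2.53 as 1 library is left out, and EPHA10 reaches below 0 when the GC trend is removed.

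Of the 4 Eph receptors outside the chosen set, 3 were in the table and EPHB1 was not analysed here. EPHA6, an EFNA receptor of the nervous system, fell in LNCaP-RRM2: it was at 15.5 and 16.2 CPM in LNCaP-EV and at 8.11 and 9.28 CPM in LNCaP-RRM2 (chr3:96814581-97748942, plus strand). The mean of 15.9 ± 0.449 CPM (SD, n = 2) dropped to 8.69 ± 0.829 CPM (SD, n = 2), 1.82-fold lower, with a log2 fold change of -0.87 (SE 0.13) and an adjusted p of 0.00699 in edgeR's quasi-likelihood test with Benjamini-Hochberg adjustment. With the GC trend removed the EPHA6 log2 fold change was -0.75 (edgeR adjusted p = 0.000942). The EPHA6 call was lost without LNCaP-RRM2 replicate 1 (edgeR adjusted p = 0.0830) or replicate 2 (0.0523), with EPHA6 log2 fold changes of -0.78 and -0.97. EPHA5, a partner of EFNA5 in axon guidance, was at 0.981 and 1.16 CPM against 1.11 and 0.954 CPM, a log2 fold change of -0.051 (SE 0.26, edgeR adjusted p = 0.895). EPHA5 overlaps the antisense gene EPHA5-AS1 at 1 end, and its fractional counts became whole (35, 35, 30 and 29) when both genes were added. Reads in that overlap cannot be assigned to either gene. EPHA5-AS1 held at most 4.22 counts in any library. EPHA8 was at 0 counts in each empty vector library and at 8 and 6 counts in LNCaP-RRM2. EPHA8 did not pass the low-count filter. The smallest total of any gene in the table was 10 counts, so EPHA8 was listed only through its LNCaP-RRM2 counts. That selection fixed its direction, and no fold or p-value is given for it.

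Most ephrin ligands were called higher in LNCaP-RRM2, and the number depended on the processing. All 8 were in the table. By edgeR's quasi-likelihood test 6 were called higher and 0 lower, where 12.5% and 7.96% of all genes were. On the adjusted p alone 7 were higher and 0 lower, where 17.8% and 24.4% of all genes were. At an unadjusted edgeR p under 0.05 stood 8 of 8, all higher. The share of all genes under that unadjusted limit is not given, so nothing is read from counts at it. The groups did not overlap for any of the 8, with LNCaP-RRM2 higher as in 34.5% of all genes, and the median log2 fold change was 0.85. EFNA2 is in each of these counts of 8, though it met the low-count filter only through its LNCaP-RRM2 libraries. The filter thus favoured its direction, and nothing is read from EFNA2 in these counts. DESeq2's Wald test put 7 of the 8 at an unadjusted p under 0.05. Among the lipid-anchored ligands, EFNA5, a ligand of EPHA3, was the most abundant in CPM, at 182.6 and 185.1 with the empty vector and 285.8 and 287.7 in LNCaP-RRM2. Its libraries agreed closely within each group, and the log2 fold change of 0.64 (SE 0.06, edgeR adjusted p = 0.00287) was a 1.56-fold rise. EFNA5 was called higher under all 15 other settings, at 43.2% GC. EFNA1, the ligand of EPHA2 first found as a TNF-induced gene, went from 61.9 and 55.7 CPM to 105.3 and 104.4 CPM, a log2 fold change of 0.83 (SE 0.08, edgeR adjusted p = 0.00297). EFNA3 rose from 32.4 ± 5.95 to 58.9 ± 3.37 CPM (log2 fold change 0.86, SE 0.14) and EFNA4 from 21.3 ± 3.66 to 36.4 ± 0.0854 CPM (0.77, SE 0.14; SD, n = 2). The edgeR adjusted p was 0.00849 for EFNA3 and 0.0105 for EFNA4. EFNA2 rested on 4 and 8 counts against 13 and 16 and did not pass (edgeR adjusted p = 0.0853).

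Among the transmembrane ligands, EFNB2, the ligand of EPHB4 on arterial endothelium, went from 165.4 and 162.8 CPM to 234.1 and 243.4 CPM. The groups stood well apart, and its 1.45-fold difference (edgeR adjusted p = 0.00375) was below the fold limit of the call. EFNB1, a ligand of EPHB2 mutated in craniofrontonasal syndrome, rose from 5.69 and 4.12 CPM to 10.4 and 8.84 CPM, a log2 fold change of 0.97 (SE 0.20, edgeR adjusted p = 0.0163). EFNB3, known in mice for axon guidance at the spinal midline, rose from 3.54 and 2.21 CPM to 6.27 and 5.87 CPM, a log2 fold change of 1.07 (SE 0.25, edgeR adjusted p = 0.0212). With the GC trend removed 3 ephrins were called higher (EFNA5, EFNB1, EFNB3), where 12.8% of all genes were, and the median of the 8 was 0.59. Without LNCaP-RRM2 replicate 1 or replicate 2, 2 ephrins were called (EFNA1, EFNA5), where 2.76% and 3.92% of all genes were.

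**Figure D5:**
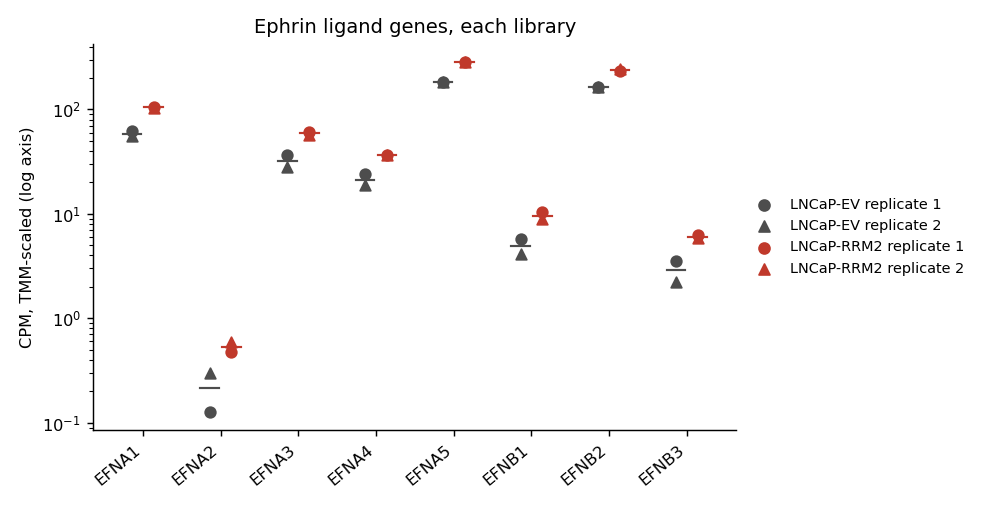
Level of each ephrin gene in every library, in TMM-scaled CPM on a log axis, with symbols as for the receptors. The LNCaP-RRM2 libraries lie above the LNCaP-EV libraries for all 8 ephrins, with EFNA5 (285.8 and 287.7 against 182.6 and 185.1 CPM) and EFNB2 the most abundant.

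Genes that act downstream of or beside the Eph receptors did not pass the call in either direction in the edgeR fit over all 4 libraries. The list held 40 genes, among them Src-family kinases, adaptors, phosphatases and the ephrin-cleaving protease ADAM10, and 37 of them were tested. By edgeR's quasi-likelihood test 0 were called higher and 0 lower, where 12.5% and 7.96% of all genes were. At an unadjusted edgeR p under 0.05 stood 22, 7 of them higher. The share of all genes under that unadjusted limit is not given, so nothing is read from this count. DESeq2 called 2 higher (ADAM10, NGEF), where it called 10.1% of all genes higher, and limma-voom called 0, where it called 12.6%. Without LNCaP-EV replicate 1, edgeR called 4 higher (GRB7, LIMK1, NGEF, SRC), where it called 18.4% of all genes. On the adjusted p alone, without the fold limit, 2 rose (ADAM10, LYN) and 12 fell, where 17.8% and 24.4% of all genes did. The genes of this list named here were chosen after their values were seen. ADAM10 went from 212.8 and 244.6 CPM to 336.1 and 343.8 CPM, a log2 fold change of 0.57 (SE 0.08, edgeR adjusted p = 0.00648). Those that fell on the adjusted p alone included the adaptors CRK and NCK1, and the actin-severing cofilin CFL1. The median of the 37 genes was -0.14.

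Other receptor tyrosine kinases were set beside the Eph family, and 27 of the 44 listed were tested. Of these 7 rose (ERBB2, PTK7, FGFR1, FGFR4, PDGFRB, MERTK, CSF1R) and 0 fell in edgeR, where 12.5% of all genes were called higher and 7.96% lower. On the adjusted p alone 12 rose and 0 fell, where 17.8% and 24.4% of all genes did. At an unadjusted edgeR p under 0.05 stood 15. The share of all genes under that unadjusted limit is not given, so nothing is read from counts at it. FGFR4, PDGFRB, MERTK and CSF1R are named after their values were seen. CSF1R (0.0949 and 0.0374 CPM in LNCaP-EV, 0.442 and 0.367 CPM in LNCaP-RRM2) and PDGFRB met the low-count filter only through LNCaP-RRM2. The filter thus favoured their direction, and nothing is read from their calls. DESeq2 called 5 higher (ERBB2, FGFR1, FGFR4, MERTK, PTK7), where it called 10.1% of all genes higher. ERBB2, the kinase amplified in a subset of breast cancers, went from 148.6 and 102.9 CPM to 267.6 and 256.5 CPM, a log2 fold change of 1.06 (SE 0.17, edgeR adjusted p = 0.00812). PTK7, a pseudokinase of planar cell polarity, had a log2 fold change of 1.01 (SE 0.17, edgeR adjusted p = 0.00871) and FGFR1 of 0.69 (SE 0.12, edgeR adjusted p = 0.00925). Without LNCaP-RRM2 replicate 1, 0 of the 28 genes then tested were called (edgeR, 12 at an unadjusted p under 0.05), where 2.76% of all genes were, and without replicate 2 those called were ERBB2 and PTK7, where 3.92% of all genes were. Without LNCaP-EV replicate 1, 12 were called higher, where 18.4% of all genes were.

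The genes whose levels followed EPHA3 most closely over the 4 libraries were sought among the 11282 others that averaged 5 CPM or more, by the Euclidean distance between centred log2 CPM values. They were AKR1C2, a steroid-metabolising reductase (distance 0.236), AKAP5, a scaffold for protein kinase A (0.362), MAGEC1, a cancer-testis antigen (0.363), ASNS, asparagine synthetase (0.511) and DDIT4L, an inhibitor of mTOR signalling (0.538). AKR1C2 went from 12.3 and 13.8 CPM to 1.92 and 2.27 CPM, and its reads can be shared with near-identical AKR1C genes, so its value is uncertain. ASNS, the most abundant of them, went from 370.4 and 389.3 CPM to 101.0 and 104.1 CPM. All 5 were low in both LNCaP-RRM2 libraries, which the choice by distance to EPHA3 fixes.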

How the data were processed

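Total RNA of 4 LNCaP libraries was sequenced as paired reads, and the authors processed them in Partek Flow, per the labels and the methods of the study. Aligner, annotation, strand setting and genome build were not stated. Deposited by the authors was 1 table of estimated counts per gene, not scaled between libraries, in which 56.1% to 58.0% of values were whole. Its gene positions overlapped RefSeq on GRCh38 for 99.8% of 16038 matched symbols, and 1 was subtracted from each printed end. The smallest total over the libraries was 10 counts.

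Estimated counts were rounded, filtered (filterByExpr), scaled by TMM and tested with edgeR 4.0.16 (quasi-likelihood test, Benjamini-Hochberg adjustment over 15162 genes). A gene was called at an adjusted p under 0.05 and a fold above 1.5. CPM used TMM-scaled library sizes, with a prior count of 2 for log2 values in the EPHA3 likeness. SDs are over 2 libraries. GC content and transcript length came from GENCODE (94.7% of genes matched, with all 9 receptors), and the GC trend was a lowess curve of span 0.3 per library. Alternatives were other scalings and filters, DESeq2 1.42.0, limma 3.58.1 (voom), each library left out, a replicate block, no fold limit and removal of the GC trend. The fits were also run on simulated counts with a spread fixed for all genes and no GC trend. That run does not show how the fits behave under the GC trend of these libraries.

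The members and lists were chosen with earlier results of these data known. By rule, genes named were all receptors and ephrins in the table, called signalling genes, the 3 called tyrosine kinases per direction with the smallest p, RRM2, the 5 genes nearest EPHA3 and any gene overlapping a receptor. Other signalling genes and tyrosine kinases were named after their values were seen.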

Additional observations from a re-analysis of the deposited data

How the results depend on the processing

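Estimated counts carry the limits of 2 libraries per group. Over all genes, 1899 were called higher and 1207 lower, and leaving out 1 library gave 427 to 2878 higher and 318 to 1579 lower. The lower count was 612 with the stricter filter and 3695 without the fold limit. The higher count was 2420 with DESeq2 size factors, 2300 with total counts, 2475 with upper-quartile factors and 1545 with the stricter filter. It was 1735 with the DESeq2 test, 2300 without a filter and 2704 without the fold limit. GC removal gave 1946 higher and 1141 lower, with the block 2066 and 1179, and centred at the median GC content 1678 and 1562. The list counts below are to be read beside these counts of all genes. Calls higher made up 61.1% of all calls, 70.9% with DESeq2 size factors, 72.4% with total counts, 75.0% with upper-quartile factors, 71.6% with the stricter filter and 42.3% without the fold limit. For the ephrins, leaving out 1 library gave 2 to 7 higher, removal of the GC trend 3, the same with the replicate block 3, and with centring at the median GC content, chosen after seeing the data, 2. Eph signalling genes called higher numbered 2 with DESeq2 size factors, total counts, upper-quartile factors, the stricter filter, the DESeq2 test, GC removal (with or without the block) and no fold limit, 1 without a filter, with the replicate block and with centred GC removal, and 0 to 4 with 1 library left out. Those called lower numbered 1 with GC removal, with it and the block, and centred, and 12 without the fold limit. Other receptor tyrosine kinases called higher numbered 11 with upper-quartile factors, 12 without the fold limit and 0 to 12 with 1 library left out, and those lower 1 with GC removal (also with the block) and 2 centred. The EPHA5 log2 fold change turned above 0 with total counts (0.014), upper-quartile factors (0.028), GC removal (0.12, also with the block) and centring (0.049), and was -0.19 to 0.12 with 1 library left out. The cause of these changes was not tested. The replicate block called 2346 genes higher and 1255 lower. Same-numbered libraries deviated together (Pearson 0.30, Spearman 0.39, across genes, which are not independent replicates), but with 2 pairs the numbers alone do not pair the samples.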
